A study of Mus musculus with 36 samples.

Results

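The nuclear genes for the subunits of respiratory complex I were followed through the liver and a subcutaneous fat depot, inguinal white adipose tissue (iWAT), in C57BL/6J mice kept on 3 feeding regimes. Members were all genes whose symbol starts with Nduf, then a, b, c, s or v and a digit, with the pseudogene names ending in -ps left out. The rule gave 38 of the 16060 genes in the 6 gene tables: 14 Ndufa, 11 Ndufb, 2 Ndufc, 8 Ndufs and 3 Ndufv genes. Of these, 37 stood in all 6 tables, and Ndufa4l2 was missing from the liver tables of each diet against controls.

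The control mice ate ad libitum (AL). Calorie-restricted mice formed another group (CR), and the remaining mice ate in restricted hours with no limit on calories (TR). Each regime lasted 16 weeks, and 6 libraries of each tissue came from each regime, 36 in all. The libraries came from 20 mice, of which 16 gave both tissues. No genotype, transgene or drug sets the groups apart in the labels, and the sources used here give no age, sex or hour of sampling, so the time since the last meal cannot be told apart from the regime. The comparison of CR with TR sets calorie restriction beside restricted feeding hours, and the part of fasting in either was not measured.

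Complex I, NADH:ubiquinone oxidoreductase, is the entry point of electrons from NADH into the respiratory chain of the inner mitochondrial membrane. A matrix arm takes the electrons from NADH and hands them through iron-sulfur clusters to ubiquinone, and a membrane arm pumps protons. The catalytic core is made of 7 nuclear subunits, Ndufv1, Ndufv2, Ndufs1 and Ndufs3 among them, and 7 subunits encoded in mitochondrial DNA (mt-Nd1 to mt-Nd6 and mt-Nd4l). The remaining nuclear subunits are called accessory and stabilise or help to assemble the enzyme. White adipocytes hold few mitochondria, brown and beige adipocytes and hepatocytes hold many.

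The values are log2 fold changes between groups with the adjusted p of an edgeR likelihood-ratio test, as deposited by the authors, and no value per library or depth stands in these tables. The words rose and fell are used where that adjusted p was under 0.05, 2-sided and over all genes of the table. An approximate standard error (SE) was derived by dividing each log2 fold change, without its sign, by the root of its likelihood-ratio statistic. Separate animals make the replicates per the labels, apart from 1 animal number that CR and TR libraries share. CR minus AL and TR minus AL share the AL libraries, so their values are set side by side and are not independent of each other.

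The clearest response was in iWAT, where most complex I genes rose on both diets and 0 fell. In CR, 25 of 38 rose, and in TR 29 of 38, where 3.52% and 4.76% of all iWAT genes tested rose in the respective tables. All 38 log2 fold changes lay above 0 on each diet. Their median was 0.87 in CR, from 0.08 (Ndufa4l2) to 1.27 (Ndufa10), and 1.06 in TR, from 0.27 (Ndufa4l2) to 1.54 (Ndufa10). Over all genes tested the medians were 0.02 and -0.04. In this bulk tissue, fewer cells of a type and less RNA per cell cannot be told apart, and likewise more.

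**Figure D1:**
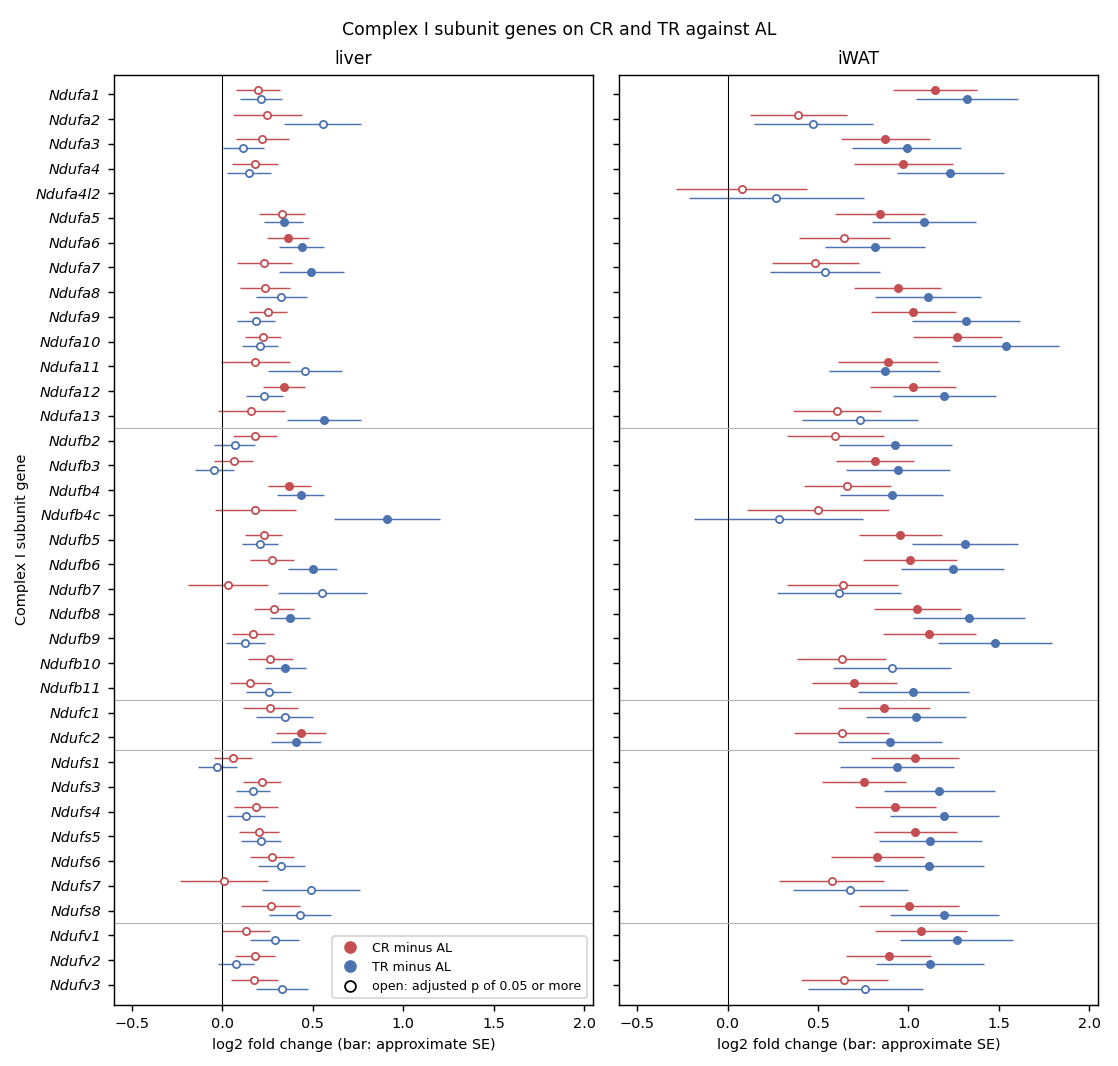
Log2 fold change of each complex I gene (rows) against AL in liver (left) and iWAT (right), CR in red and TR in blue; bars are the approximate SE, filled points have an adjusted p under 0.05, and grey lines part the 5 name classes. Of the 38 genes 37 are drawn. In iWAT every point lies right of 0, with 24 filled in CR and 28 in TR, whereas liver has 4 and 10 filled points and a narrower range.

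Nearly all of the nuclear core rose in iWAT. In CR 6 of 7 core genes passed the threshold, with a median log2 fold change of 1.00, and in TR 6 of 7, with a median of 1.17. Ndufv1, which holds the flavin and binds NADH, rose by 1.07 ± 0.25 (approximate SE) in CR (adjusted p = 0.00122), beside 1.27 ± 0.31 in TR (adjusted p = 0.00173), and its partner Ndufv2 rose by 0.89 and 1.12 per the authors' deposited tables. Ndufs1, the largest core subunit and carrier of several iron-sulfur clusters, rose by 1.04 and 0.94 per the authors' deposited tables. Ndufs8 and Ndufs3, which belong to the ubiquinone-reducing part, rose by 1.00 and 0.75 in CR and by 1.20 and 1.17 in TR per the authors' deposited tables. The exception in the core was Ndufs7, which carries the last iron-sulfur cluster before ubiquinone, with 0.58 ± 0.29 in CR (adjusted p = 0.244), beside 0.68 ± 0.32 in TR (adjusted p = 0.170) per the authors' deposited tables.

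Both arms of the enzyme took part. Of 16 genes listed for the matrix arm, 11 rose in CR and 12 in TR, and of 19 listed for the membrane arm, 13 and 16 rose. The arms' median log2 fold changes were both 0.87 in CR, and 1.12 (matrix arm) and 1.03 (membrane arm) in TR. By name class, 9 of 14 Ndufa, 6 of 11 Ndufb, 1 of 2 Ndufc, 7 of 8 Ndufs and 2 of 3 Ndufv genes rose in CR, with medians of 0.88, 0.70, 0.75, 0.97 and 0.89. In TR the counts were 10, 8, 2, 7 and 2, with medians of 1.04, 0.94, 0.97, 1.15 and 1.12. Differences between arms or classes were not tested.

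Among accessory subunits of iWAT, the highest values belonged to Ndufa10, a membrane-arm subunit of the nucleoside kinase fold (ENSMUSG00000026260, GRCm38 chromosome 1 from 92439010 to 92473860, minus strand). It rose 2.41-fold in CR (log2 1.27 ± 0.25, adjusted p = 2.91e-05) and 2.91-fold in TR (log2 1.54 ± 0.30, adjusted p = 1.79e-05) per the authors' deposited tables. Ndufb9, a small protein that docks the acyl carrier protein Ndufab1 on the membrane arm, had the highest value of its class, 1.12 ± 0.26 and 1.48 ± 0.31 per the authors' deposited tables. Ndufa1, an X-linked membrane-arm subunit, rose by 1.15 and 1.32. Ndufc1 was the higher of the Ndufc pair, with 0.86 and 1.04, and Ndufc2 had 0.63 in CR (adjusted p = 0.134) but rose by 0.90 in TR (adjusted p = 0.0263) per the authors' deposited tables.

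The lower end of the iWAT range held accessory genes as well. Ndufa2, a matrix-arm subunit with a thioredoxin fold, had 0.39 ± 0.27 in CR (adjusted p = 0.441), beside 0.47 ± 0.33 in TR (adjusted p = 0.401) per the authors' deposited tables. Ndufa7 had 0.49 and 0.54 and Ndufa13 (also known as GRIM-19) 0.60 and 0.73. Ndufb2 had 0.60 in CR (adjusted p = 0.179) but rose by 0.93 in TR. Ndufv3, the only accessory gene of its class, was the lowest of the class with 0.65 in CR (adjusted p = 0.0803), beside 0.76 in TR (adjusted p = 0.110). Besides these, Ndufa4l2, Ndufb4c, Ndufb7, Ndufb10 and Ndufs7 missed the threshold on both diets, and Ndufa6, Ndufb4 and Ndufc2 in CR.

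A few members of the name rule are not ordinary complex I subunits. Ndufa4 is now counted as a subunit of complex IV, and its iWAT log2 fold changes of 0.97 (adjusted p = 0.0104) and 1.23 (adjusted p = 0.00101) per the authors' deposited tables lay among those of the complex I genes. Its paralog Ndufa4l2, a hypoxia-responsive gene, had 0.08 ± 0.36 and 0.27 ± 0.49 (adjusted p = 0.929, then 0.778). Ndufb4c (ENSMUSG00000083380, GRCm38 chromosome 15 from 73809507 to 73809896) is annotated in GENCODE as a processed pseudogene. It may share reads with its parent Ndufb4, so its values are uncertain, and they were 0.50 ± 0.39 and 0.28 ± 0.47 in iWAT. Ndufab1 and Ndufb1-ps lie outside the rule by their names. Ndufab1 rose by 0.91 and 1.16, and Ndufb1-ps by 0.90 and 1.03 in iWAT per the authors' deposited tables.

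Within iWAT, the more abundant members tended to have the higher log2 fold changes. Across the 38 genes, which are not independent replicates and share the libraries, log2 fold change and log2 mean CPM, the authors' fitted abundance per library total, had r = 0.66 in CR and r = 0.71 in TR, given as a description. Over all genes with an annotated transcript r was 0.10 and 0.17. Ndufa4 stood at the abundant end, with a log2 mean CPM of 8.41 in the CR minus AL table. Ndufb4c (3.38) and Ndufa4l2 (3.44) stood at the scarce end. Both are counted in r, and r without them was not computed.

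**Figure D2:**
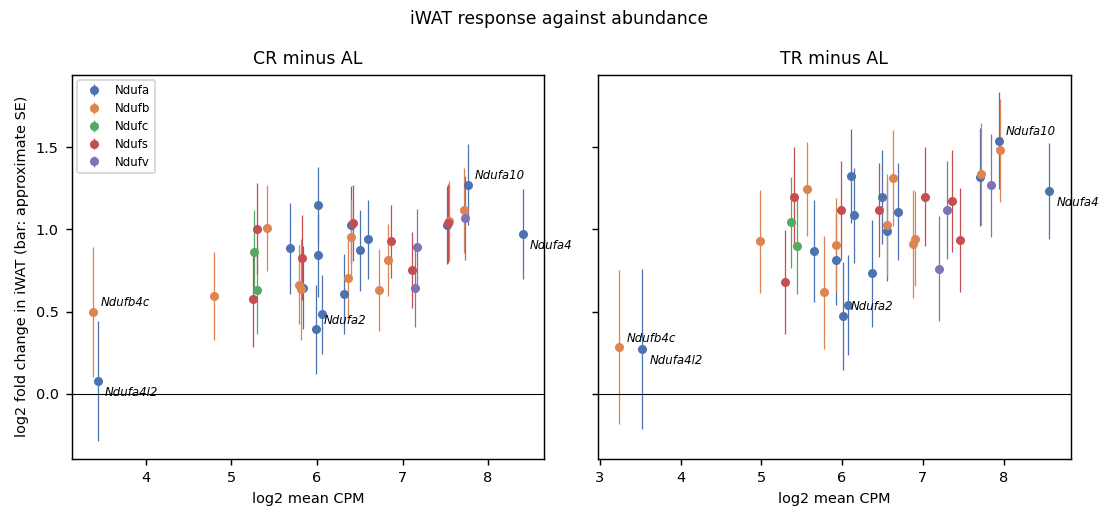
Log2 fold change in iWAT against log2 mean CPM for 37 of the 38 complex I genes in CR minus AL (left) and TR minus AL (right); colours are the name classes and bars the approximate SE. The scarce Ndufb4c and Ndufa4l2 sit low at the left and Ndufa10 toward the top right, with r = 0.66 and r = 0.71 over all 38.

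Per length, subunit genes differed in level by several-fold within a tissue. Levels were taken as CPM per kilobase summed over a gene's transcripts, as means over the CR and AL libraries of a tissue, and each tissue was normalized separately. Leaving out Ndufa4, Ndufa4l2 and Ndufb4c, the 35 remaining genes had a median of 66.5 CPM per kb in liver and 112 in iWAT. They ranged from 26.0 (Ndufs8) to 191 (Ndufb9) in liver and from 39.8 (Ndufs8) to 298 (Ndufb9) in iWAT, so the same genes stood at both ends in each tissue. Ndufa4 lay above them with 414 and 550 CPM per kb.

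In the liver the same genes moved little, and a smaller share passed the threshold. In CR 4 of 37 rose and 0 fell, where 5.79% of all liver genes rose, and in TR 10 of 37 rose and 0 fell, where 9.35% of all genes rose. The median log2 fold change was 0.22 in CR and 0.33 in TR, beside -0.0038 and -0.00052 over all genes, and 37 and 35 of 37 values lay above 0. At an unadjusted p under 0.05, 13 members in CR and 23 in TR were above 0. Against single transcripts rather than genes the call ended: 0 of 37 members had a transcript called in the liver on either diet in the authors' edgeR test, where 5 and 18 of 86 member transcripts had an unadjusted p under 0.05. Of all liver transcripts, 1.45% rose in CR and 1.96% in TR.

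The 4 genes that rose in CR livers were Ndufc2, Ndufb4, Ndufa6 and Ndufa12, all accessory. Ndufc2, a membrane-arm subunit (ENSMUSG00000030647, GRCm38 chromosome 7 from 97400003 to 97407802), was the highest, with 0.44 ± 0.14 in CR (adjusted p = 0.0216), beside 0.41 ± 0.14 in TR (adjusted p = 0.0242) per the authors' deposited tables. Ndufb4, also of the membrane arm, rose by 0.37 and 0.43. Ndufa6, which docks Ndufab1 on the matrix arm, rose by 0.36 and 0.44. Ndufa12, a late-joining matrix-arm subunit, rose by 0.34 in CR (adjusted p = 0.0369) but had 0.23 in TR (adjusted p = 0.0989) per the authors' deposited tables. Of these genes, Ndufa12 alone passed the threshold in CR iWAT too, although the iWAT values of the others were larger (0.63 to 0.66), with approximate SE of 0.24 to 0.26.

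In TR livers the other members that rose were Ndufa5, Ndufa7, Ndufa13, Ndufb4c, Ndufb6, Ndufb8 and Ndufb10. Their log2 fold changes ran from 0.34 (Ndufa5) and 0.35 (Ndufb10) over 0.37 (Ndufb8), 0.49 (Ndufa7) and 0.50 (Ndufb6) to 0.56 (Ndufa13) and 0.91 (Ndufb4c) per the authors' deposited table. The Ndufb4c value, with an approximate SE of 0.30 and an adjusted p of 0.0158, carries the uncertainty of a pseudogene, and without it 9 of 36 rose. Members with the opposite sign were Ndufb3, with -0.04, and Ndufs1, with -0.03.

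None of the 7 nuclear core genes passed the threshold in liver. The count was 0 of 7 on each diet in the authors' edgeR test, with 1 of 7 in CR and 2 of 7 in TR at an unadjusted p under 0.05, and the core medians were 0.18 and 0.17. Ndufs8 had 0.27 ± 0.16 and 0.43 ± 0.17, and Ndufs7 0.01 ± 0.24 and 0.49 ± 0.27 per the authors' deposited tables. Ndufs3 had 0.22 and 0.17, Ndufs1 0.06 and -0.03, Ndufv1 0.13 and 0.29, and Ndufv2 0.18 and 0.08. The lowest members of the other classes in CR livers were Ndufa13 (0.16), Ndufb7 (0.03) and Ndufc1 (0.27). In TR livers the lowest of the Ndufa class was Ndufa3 (0.12).

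Set against each other, the tissues differed in part of the subunits, and every such gene responded more in iWAT. The iWAT minus liver difference of the log2 fold changes was tested with its approximate SE, 2-sided and Benjamini-Hochberg adjusted over all genes in both tables. In CR 10 of 37 members passed, where 3.09% of all genes passed with iWAT higher, and in TR 15 of 37, where 4.16% did. The median difference was 0.69 in CR and 0.79 in TR, beside 0.03 and -0.01 over all genes. Ndufa10 differed by 1.04 ± 0.27 in CR (adjusted p = 0.00399), from 0.23 in liver and 1.27 in iWAT. Ndufb9 differed by 1.35 ± 0.33 in TR (adjusted p = 0.00203), from 0.13 in liver and 1.48 in iWAT.

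Core genes were among those that differed between tissues. Ndufs1 and Ndufv1 passed in CR, with differences of 0.98 and 0.94. In TR Ndufv2, Ndufs3 and Ndufs1 passed, with 1.04, 1.00 and 0.97. In TR the sign was reversed for Ndufb4c (-0.63) and Ndufa2 (-0.08), and neither passed. Both tissues come mostly from the same mice, and the counts depend on how strongly they are taken to vary together: 3 to 17 members in CR and 9 to 19 in TR passed at correlations of -0.3 to 0.3.

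**Figure D3:**
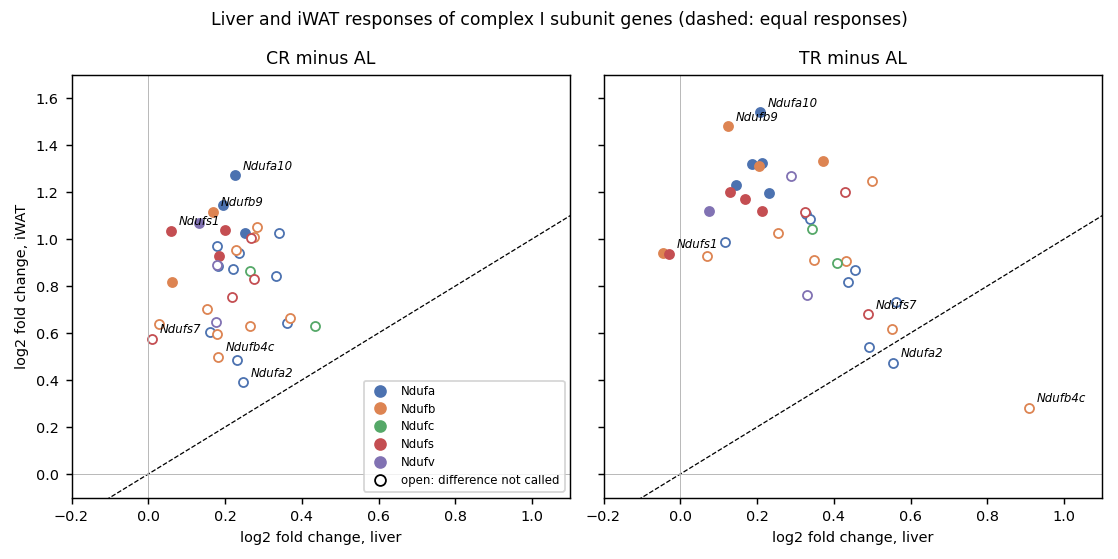
Log2 fold change in iWAT against that in liver for 36 of the 37 complex I genes compared, CR minus AL (left) and TR minus AL (right); colours are the name classes, filled points have a tissue difference with adjusted p under 0.05, and the dashed line marks equal responses. All points lie above the line in CR, and all but Ndufb4c and Ndufa2 in TR.

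No complex I gene passed the threshold in the direct comparison of CR with TR. In liver 0 of 38 passed in the authors' edgeR test (4 at an unadjusted p under 0.05), where 0.469% of all genes passed in either direction. In iWAT 0 of 38 passed (0 at an unadjusted p under 0.05), where 0.918% of all genes passed. The approximate 95% interval of CR minus TR lay within 1 log2 unit of 0 for 37 members in liver and 35 in iWAT, and within 0.5 for 30 and 0. The intervals of all 38 members in iWAT thus reach past 0.5, and those of 3 past 1.

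The iWAT values leaned to the TR side all the same. Of 38 members, 36 lay below 0 in CR minus TR, with a median of -0.27, where the median of all genes was 0.01. The lowest was Ndufs3 with -0.49 (95% interval -1.04 to 0.06, adjusted p = 1.00), and Ndufb9 had -0.44 (-1.03 to 0.15) per the authors' deposited table. Those above 0 were Ndufb4c (0.15) and Ndufs1 (0.04). The genes were measured in the same libraries and are not independent replicates of a diet. In liver the median was -0.05 with 23 below 0, and the lowest were Ndufb4c (-0.73), Ndufb7 (-0.52), Ndufs7 (-0.48) and Ndufa13 (-0.40), the 4 with an unadjusted p under 0.05 (adjusted p of 0.192 to 0.285). Values above 0 in liver reached 0.11, in Ndufa3, Ndufa12, Ndufb2, Ndufb3 and Ndufv2, and the other 10 members above 0 were below these. Cell type markers in iWAT also differed between CR and TR. Of 9 hepatocyte markers 8 fell (median -6.02), and of 8 skeletal muscle markers 2 rose (median 4.14), where 0.918% of all genes passed. General adipocyte markers had a median of -0.22, with 0 of 6 past the threshold (0 at an unadjusted p under 0.05). The part of these markers in the complex I values was not tested.

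Members of higher GC content had lower CR minus TR values in liver. Over 37 members with an annotated transcript, GC content and CR minus TR had r = -0.54 in liver, given as a description over genes that share the libraries, and over all such genes r was -0.31. For TR minus AL in liver r was 0.47 over members and 0.20 over all genes. Ndufs7, one of the lowest, had the highest GC content of the members (60.7%), but Ndufb4c, the lowest, had 51.0%, below their median of 52.9%. For CR minus TR in liver and log2 mean CPM, r was 0.52 over members and 0.06 over all such genes. The part of GC content or abundance in these values was not tested.

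**Figure D4:**
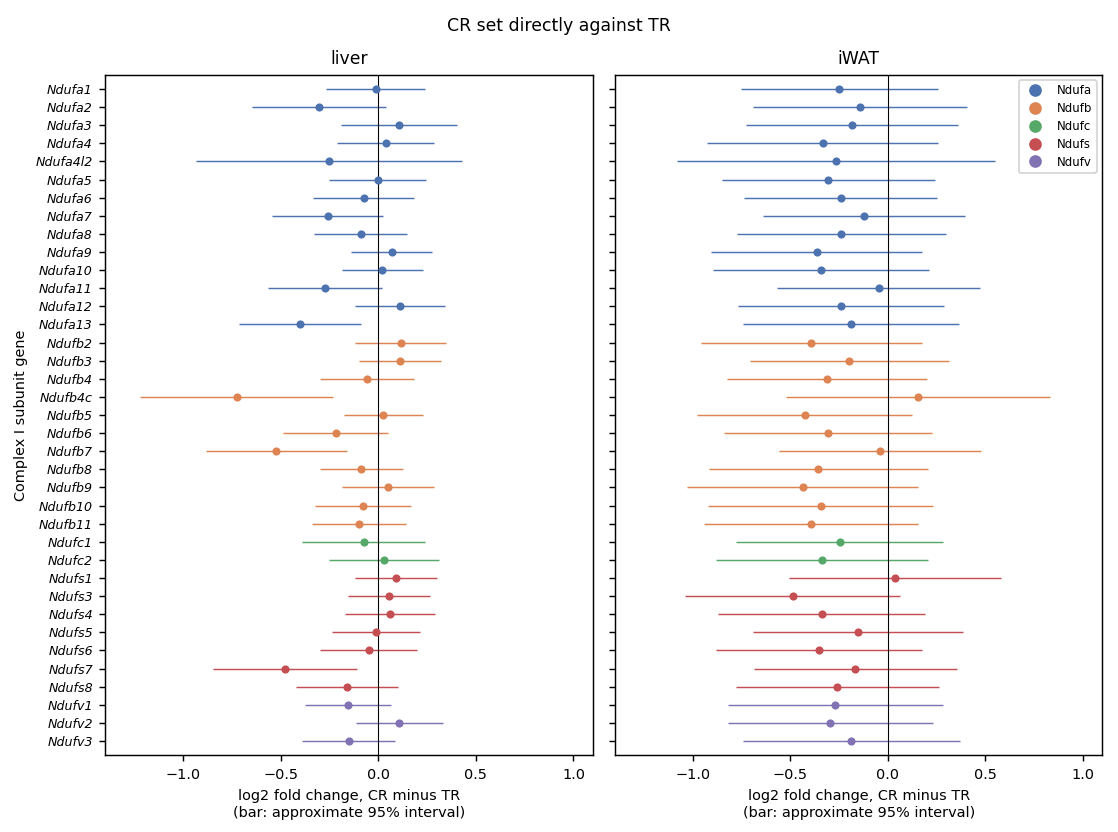
CR minus TR of 37 of the 38 complex I genes in liver (left) and iWAT (right), with the approximate 95% interval as a bar and the name class as colour. In iWAT 35 of 37 points lie left of 0 with intervals that reach over it, and in liver Ndufb4c, Ndufb7, Ndufs7 and Ndufa13 have intervals below 0.

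No tissue difference in CR minus TR was detected at the size of these errors. By the approximate test 0 of 38 passed (1 at an unadjusted p under 0.05, Ndufb4c with 0.88 ± 0.43), where 1.24% of all genes passed in either direction. The iWAT minus liver difference lay below 0 for 31 of 38 members, with a median of -0.26, beside -0.01 over all genes.

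Single transcripts of members rose in iWAT as well, and differences between transcripts of a gene were not tested. In CR 19 of 100 member transcripts in 15 genes rose, where 1.42% of all transcripts rose, and in TR 28 of 104 in 21 genes, where 2.03% rose. Ndufa10 had 3 transcripts that rose on both diets. Its most abundant one, Ndufa10-207, is annotated for nonsense-mediated decay and rose by 1.14 and 1.56, the coding Ndufa10-201 rose by 1.36 and 1.41, and Ndufa10-204, with a retained intron, by 1.45 and 1.61 per the authors' deposited tables. Ndufv1-201, the main coding transcript of Ndufv1, rose by 1.09 and 1.16. Ndufv1-207 was the 1 member transcript that fell, in CR, with a fitted -11.21 ± 2.17 at a log2 mean CPM of 2.47, which rests on a group near 0 and is no bound. Between CR and TR 0 member transcripts passed in the authors' edgeR test (8 in liver and 3 in iWAT at an unadjusted p under 0.05).

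Reads of neighbouring genes could enter some of these values. Exons of 12 of the 38 members overlap exons of another coding gene in GENCODE, 10 of them on the opposite strand, such as Ndufb5 with Mrpl47 and Ndufs3 with Kbtbd4. Ndufb2, Ndufb8 and Ndufb9 overlap a predicted gene on the same strand. The sources used here do not say whether the counting used strand.

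Of the core subunits encoded in mitochondrial DNA, 3 rose in TR iWAT and 1 in liver. In iWAT 0 of 7 mt-Nd genes passed in CR in the authors' edgeR test (3 at an unadjusted p under 0.05), with a median of 0.71. In TR 3 of 7 rose (42.9%, beside 4.76% of all genes), with a median of 0.67. These were mt-Nd3 (1.27 ± 0.38, adjusted p = 0.0128), mt-Nd1 (0.99, adjusted p = 0.00409) and mt-Nd2 (0.77, adjusted p = 0.0460) per the authors' deposited table. In iWAT mt-Nd5 was lowest on both diets, with 0.59 and 0.33. In liver mt-Nd3 alone rose, by 0.68 ± 0.17 in CR (adjusted p = 0.00114), beside 0.79 ± 0.16 in TR (adjusted p = 1.90e-05) per the authors' deposited tables, and mt-Nd5 had -0.03 and -0.15. The liver share was 1 of 7 on each diet (14.3%), where 5.79% of all genes rose in CR and 9.35% in TR.

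Assembly factors, which build the enzyme but are not part of it, passed the threshold in CR at shares near those of all genes. Of 20 measured in iWAT, 1 rose in CR (5%, beside 3.52% of all genes), Foxred1 (0.84, adjusted p = 0.00419), and 3 in TR (15%, beside 4.76%), Foxred1 (0.97), Chchd4 (0.97) and Ecsit (0.79) per the authors' deposited tables. All 20 values lay above 0, with medians of 0.53 and 0.66, and Tmem126b was lowest with 0.12 on both diets. In liver 1 of 20 rose in CR (5%, beside 5.79% of all genes) and 2 in TR (10%, beside 9.35%). Ndufaf6 rose by 0.75 ± 0.15 in CR (adjusted p = 3.87e-05), beside 0.64 ± 0.16 in TR per the authors' deposited tables, above every subunit in CR. In TR livers Ndufaf4 rose by 0.41 and Ndufaf7, an arginine methyltransferase, fell by 0.31. The count of assembly factors was not tested against that of subunits.

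Other respiratory chain complexes moved beside complex I in iWAT. The list for complexes II to V also holds Cycs, cytochrome c, which is not a subunit of them. Of its 38 measured genes in iWAT, 27 rose in CR (71.1%) and 33 in TR (86.8%), with medians of 1.05 and 1.23. Values ran from Atp5g1 (0.34 and 0.35, not past the threshold) to Cycs (1.54 and 1.58). In liver 2 of 38 rose in CR (Sdhb and Cox5a), a share of 5.26% beside 5.79% of all genes, and 8 in TR, 21.1% beside 9.35%, with medians of 0.22 and 0.24. Among 17 other mitochondrial proteins in iWAT, 4 rose in CR (Phb, Mdh2 and Cs among them) and 6 in TR, with medians of 0.58 and 0.65. Of all iWAT genes 3.52% rose in CR and 4.76% in TR.

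Genes listed for other handling of NADH and electrons rose in part in iWAT, and some fell in liver. The list is not limited to enzymes that bypass complex I. Gpd2, the mitochondrial glycerol-3-phosphate dehydrogenase that bypasses complex I, rose by 1.97 ± 0.30 in CR and 1.97 ± 0.36 in TR in iWAT per the authors' deposited tables. Its cytosolic partner Gpd1 had 1.31 in CR (adjusted p = 0.0747) but rose by 1.43 in TR in iWAT, and in liver it fell by 0.84 and by 0.86. Etfdh, which feeds electrons of fatty acid oxidation to ubiquinone, rose by 0.96 in CR iWAT and fell by 0.83 in CR and by 0.96 in TR livers. Of 10 genes in this list, 3 rose on each diet in iWAT (30%, beside 3.52% of all genes in CR and 4.76% in TR). These were Gpd2 and Mdh1 on both, Etfdh in CR and Gpd1 in TR. In liver the 2 that fell on each diet were Gpd1 and Etfdh, where 5.37% of all genes fell in CR and 9.54% in TR. Got1 rose in TR livers (10% of the list, beside 9.35% of all genes). The difference between tissues was not tested for this list.

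No regulator of respiratory genes in the list looked at passed the threshold upward in iWAT. Of 15 measured, 0 rose in CR or TR in the authors' edgeR test, with 3 and 2 at an unadjusted p under 0.05 in either direction, and Nrip1, a corepressor of oxidative genes, fell in TR with -1.19 (adjusted p = 0.00245). The coactivator Ppargc1a had 0.46 ± 0.42 and 0.33 ± 0.47, and Nrf1 0.16 and 0.13. Esrrg was highest in CR with 1.57 ± 0.61 (adjusted p = 0.0998) and Esrrb in TR with 1.52 ± 0.76 (adjusted p = 0.208) per the authors' deposited tables. In TR livers 4 of 14 rose (28.6%, beside 9.35% of all genes), Nrip1, Pprc1, Esrrb and Esrra. Esrra, a nuclear receptor of respiratory genes, had 0.82 (adjusted p = 0.0240). Gabpa and Tfb1m fell by 0.38 and by 0.41, where 9.54% of all genes fell. Esrra was also the 1 gene of this list that differed between the diets in liver, with -0.70 in CR minus TR (adjusted p = 0.0473).

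**Figure D5:**
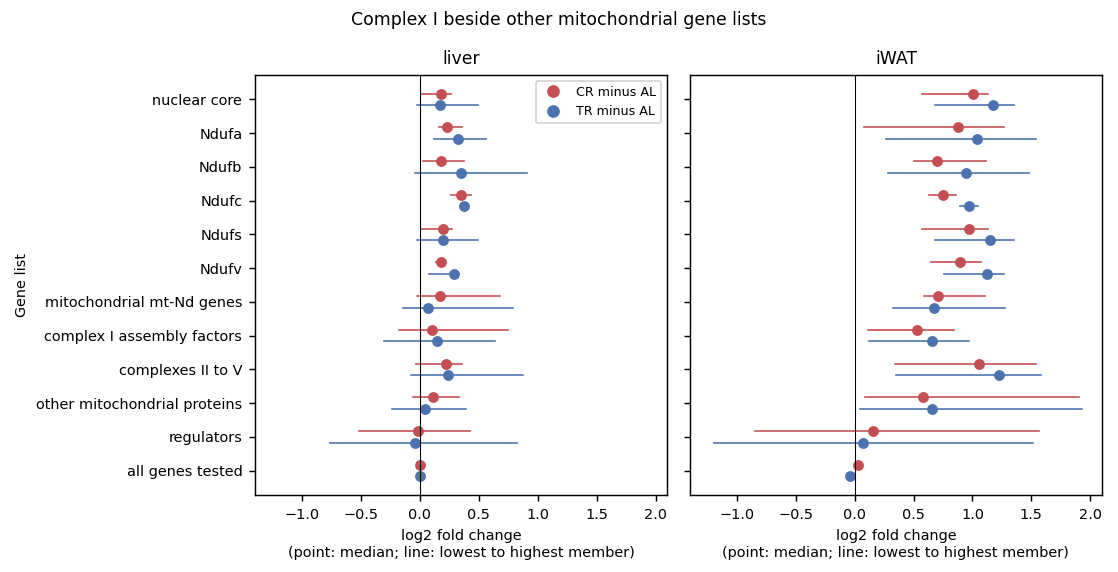
Median log2 fold change (point) and lowest to highest member (line) of each gene list in liver (left) and iWAT (right), CR minus AL in red and TR minus AL in blue; all genes tested are shown by their median only. In iWAT the complex I class medians run from 0.70 (Ndufb) to 0.97 (Ndufs) in CR and from 0.94 to 1.15 in TR. They lie below complexes II to V (1.05 and 1.23) and above assembly factors (0.53 and 0.66) and regulators (0.16 and 0.07). The mt-Nd genes have 0.71 and 0.67, and other mitochondrial proteins 0.58 and 0.65.

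Markers of other cell types moved in the same iWAT samples. Of 7 brown and beige adipocyte markers 6 rose on each diet, with medians of 3.07 and 2.88, among them Ucp1 by 4.13 and 2.88 per the authors' deposited tables. In CR, 7 of the 9 markers of hepatocytes fell (median -3.83), with a range from -4.33 to 0.49. In TR 1, Cyp2e1, rose, with a median of 2.19 and a range from 1.25 to 2.92. Skeletal muscle markers had a median of 1.09 in CR, where 0 of 9 passed in the authors' edgeR test (0 at an unadjusted p under 0.05), and in TR 5 of 9 fell (Acta1, Mb, Myh1, Myh2 and Ttn), with a median of -3.00. General adipocyte markers had medians of -0.15 and 0.10 over 6 genes, and Adipoq had -0.15 and 0.09. In CR 0 of the 6 passed in the authors' edgeR test (1 at an unadjusted p under 0.05). In TR Fabp4 rose with 0.59 (adjusted p = 0.0158) and Lep fell with -0.96 (adjusted p = 0.0300) per the authors' deposited table. All 9 muscle markers lay above 0 in CR, and all 9 hepatocyte markers lay above 0 in TR. Across all genes in iWAT, 3.78% fell in CR and 5.24% in TR.

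Stromal and immune markers lay lower in iWAT on both diets, except those of lymphocytes. All 4 fibroblast and progenitor markers were below 0, with medians of -0.93 and -1.07, and Dcn, decorin of the extracellular matrix, fell with -1.28 in CR (adjusted p = 0.0429), beside -1.54 in TR (adjusted p = 3.86e-04) per the authors' deposited tables. Pdgfra, a progenitor marker, fell by 1.17 in TR. All 5 macrophage markers were below 0, with medians of -0.66 and -0.78, and Itgam fell by 1.41 in TR (adjusted p = 0.0239) per the authors' deposited table. The 4 endothelial markers were also below 0 on both diets, with medians of -0.17 and -0.34. Of them Tek alone fell, with -0.91 in CR (adjusted p = 0.0146), beside -1.17 in TR (adjusted p = 0.00339) per the authors' deposited tables. The 4 lymphocyte markers had medians of 1.18 and 1.01, and 0 of 4 passed on either diet in the authors' edgeR test (0 at an unadjusted p under 0.05). The part of the iWAT markers in the complex I values was not tested.

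In liver some cell type markers passed the threshold as well. Of 9 hepatocyte markers 2 rose in CR (Tat and Ttr) and 2 in TR (Alb and Ttr), with medians of 0.21 and 0.10, and 0 of 9 muscle markers stood in the tables. In TR all 5 macrophage markers were below 0, with a median of -0.53, and Lyz2 fell by 0.61. All 4 endothelial markers were below 0 in TR, with a median of -0.22, and Kdr fell by 0.46 (adjusted p = 0.0264) per the authors' deposited table. Of all liver genes 5.37% fell in CR and 9.54% in TR. In CR 0 of these 9 macrophage and endothelial markers passed in the authors' edgeR test (0 at an unadjusted p under 0.05), and all 9 were below 0. Col1a1, a collagen gene of fibroblasts, rose by 0.87 in CR (adjusted p = 0.00787), beside 1.54 in TR (adjusted p = 3.91e-07) per the authors' deposited tables, and the other 2 fibroblast markers measured were below 0. The 3 lymphocyte markers measured had medians of 0.27 and -0.41, with 0 of 3 past the threshold on either diet in the authors' edgeR test (0 at an unadjusted p under 0.05). The part of these markers in the liver values was not tested.

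Because the subunit genes rose together, their promoters were read for shared letters. RefSeq (GRCm38.p6) held a promoter of 300 bases, 250 before the RefSeq start and 50 after, for 32 of the 38 members. The other 6 members had no entry, Ndufa2, Ndufa4l2, Ndufb4c, Ndufb9 and Ndufs1 among them. Motifs were searched on both strands as exact letters: GCGCATGCG for NRF1, CCGGAAG for ETS factors such as GABPA, AAGGTCA for estrogen-related receptors and AAGATGGCG for YY1, and 14 members held at least 1 of them. The letters for YY1 contain ATG, so they can coincide with a start codon.

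The YY1 letters were in 5 members (15.6%), against 1.64% of the 27025 promoters of all genes and 3.19% of the 11602 promoters of genes in the iWAT tables. They are shown because all 5 lay in the sense direction within the first 50 bases after the start, and in each the match overlapped the annotated start codon. Each line gives 30 bases 5′ to 3′ on the gene's strand, with the matched letters in capitals:
Ndufa9 (chr6:126849096-126849125, minus strand): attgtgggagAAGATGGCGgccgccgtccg
Ndufc1 (chr3:51408914-51408943, minus strand): cctgcggaacAAGATGGCGccgtccgtagt
Ndufs4 (chr13:114388045-114388074, minus strand): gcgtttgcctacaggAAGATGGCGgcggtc
Ndufs6 (chr13:73328433-73328462, minus strand): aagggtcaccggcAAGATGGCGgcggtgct
Ndufs7 (chr10:80249463-80249492, plus strand): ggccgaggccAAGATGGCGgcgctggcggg

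Of these 5 genes, Ndufa9, Ndufc1, Ndufs4 and Ndufs6 rose in iWAT on both diets, with log2 fold changes of 1.03, 0.86, 0.93 and 0.83 in CR, and Ndufs7 did not pass. In liver 0 of the 5 passed on either diet in the authors' edgeR test. The sense letters wholly after the start were in 0.762% of all promoters.

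The NRF1 letters were in 2 members (6.25%), against 1.95% of all promoters and 3.64% of those of genes in the iWAT tables. Their matches, shown because both lay before the RefSeq start, are in capitals on the gene's strand:
Ndufa11 (chr17:56717692-56717721, plus strand): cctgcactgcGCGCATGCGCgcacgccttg
Ndufa8 (chr2:36049328-36049357, minus strand): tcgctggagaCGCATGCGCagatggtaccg

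In Ndufa11 the letters match on both strands in overlap, 60 to 51 bases before the RefSeq start, and in Ndufa8 on the opposite strand, 9 to 1 bases before it. In GENCODE the gene Ndufa8 begins further upstream, at 36049406 on the minus strand, so its match lies within that gene. Ndufa11 rose by 0.88 and 0.87 and Ndufa8 by 0.94 and 1.11 in iWAT per the authors' deposited tables. The ETS letters were in 4 members (12.5%, against 9.93% of all promoters and 18.2% of iWAT-table genes), Ndufb6, Ndufb7, Ndufs3 and Ndufs8. The estrogen-related receptor letters were in 3 (9.38%, against 5.38% and 4.20%), Ndufb2, Ndufb4 and Ndufs5. A match describes letters in this window only.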

How the data were processed

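Bulk RNA sequencing of 36 liver and iWAT libraries was compared by the authors. Trizol RNA and a TruSeq kit were used, per the labels' protocols. The submitters' processing notes name bcl2fastq 2.20, STAR 2.5.3a, RSEM (version not given) and GRCm38.p5. For the annotation, filter and scaling nothing is given in the sources used here. Each of the 12 tables (6 at gene and 6 at transcript level) holds 1 edgeR comparison by the authors. The log2 values are the authors' log2 fold change and log2 mean CPM, per the file headers. The score is the authors' likelihood-ratio statistic, per the file headers. Unadjusted p-values and the FDR are likewise as the authors deposited them.

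The deposited values were used as they stand, because no values per library are in these tables. A planned count model could therefore not be fitted, and depth is unknown. The members, the gene lists and the rule for named genes were chosen with earlier results of these data known. Named genes are core subunits, the highest and lowest member of each class and tissue, all liver calls, members against their tissue's median, Ndufa4, Ndufa4l2 and the ends of each other list. Other names were picked with their values in view. The test between tissues takes both as uncorrelated, with correlations of 0.3 and -0.3 as alternatives. It was run on simulated data with independent normal errors of the same approximate SE, which cannot check these assumptions. The calculations used Python 3.11.15, pandas 2.3.3, numpy 2.4.6 and scipy 1.17.1. Lengths and GC content came from GENCODE M21 transcripts, and the 38 members matched by identifier. A few genes count in the totals and medians, but their own values are not reported here or drawn in plots of single genes.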

Additional observations from a re-analysis of the deposited data

Results flagged for a closer look

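The response to a diet differed between iWAT and liver, by the approximate test of the difference, for 10 of 37 subunit genes in CR minus AL and 15 of 37 in TR minus AL. Of these, 9 in CR and 14 in TR are given here. In CR the iWAT minus liver differences in log2 fold change were 1.04 for Ndufa10, 0.98 for Ndufs1, 0.95 for Ndufa1, 0.95 for Ndufb9, 0.94 for Ndufv1, 0.84 for Ndufs5, 0.78 for Ndufa9, 0.75 for Ndufb3 and 0.74 for Ndufs4. In TR they were 1.35 for Ndufb9, 1.33 for Ndufa10, 1.13 for Ndufa9, 1.11 for Ndufa1, 1.11 for Ndufb5, 1.09 for Ndufa4, 1.07 for Ndufs4, 1.04 for Ndufv2 and 1.00 for Ndufs3. The remaining TR differences were 0.99 for Ndufb3, 0.97 for Ndufs1, 0.97 for Ndufa12, 0.96 for Ndufb8 and 0.91 for Ndufs5. All were higher in iWAT. The log2 fold changes of the liver behind them ran from -0.04 to 0.37.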

How the results depend on the processing

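No paired analysis was possible because the tables hold comparisons of groups and no values per library. For the same reason no replicate could be left out. The 24 alternatives of the median log2 fold changes all kept their direction and moved by less than the median approximate SE. Of 51 alternatives of counts, 40 stayed within 1.5 times the reported count. These include all alternatives for CR minus TR, where the count was 0 in every setting. At an adjusted p under 0.01 the liver counts became 0 in CR and 4 in TR, and the tissue differences 2 in CR and 6 in TR. At an adjusted p under 0.1, 16 members passed in TR livers. By transcript, 0 members passed in the liver on either diet and 15 passed in CR iWAT. With a correlation of -0.3 between tissues the tissue differences were 3 in CR and 9 in TR, and with 0.3 they were 17 in CR. Leaving out the pseudogene Ndufb4c, an alternative chosen after seeing the data, changed 1 count, that of TR livers, from 10 to 9. Depth is unknown, and the approximate SE is larger in iWAT than in liver for every member measured in both.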
